A study of Mus musculus and Mus musculus musculus x Mus musculus castaneus with 52 samples.

Results

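The glycolysis and hypoxia-response genes described here are 37 genes, chosen by name, of the 16687 genes in a table of RNA levels from mouse pluripotent stem cells. They comprise 3 sugar and lactate transporters, 14 glycolytic enzymes, 2 regulators of carbon flux (Pfkfb3 and Pdk1), 5 genes of the pathway of hypoxia-inducible factor (HIF), 12 genes that HIF is known to induce, and Txnip, a gene that responds to glucose. All 37 were in the table, and all 37 reached a mean of 1 CPM (reads scaled to library size) in each comparison and were tested.

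The study read 24 RNA libraries. Induced pluripotent stem cells (iPSCs, somatic cells reprogrammed to a pluripotent state) of Mus musculus were read at passage 7 (P7) and passage 13 (P13). They were 3 male XY lines (LV4, LV8 and LV16) and 3 female lines (LV20, LV21 and LV22), which the labels name XX at P7 and XO at P13. Embryonic stem cells (ESCs) at passage 5 (P5) were 4 lines, CM1 and CM2 with XX and CM3 and CM7 with XY chromosomes, all from musculus by castaneus crosses. A further experiment grew ESCs without feeder cells in serum with LIF, the cytokine that holds mouse ESCs in an undifferentiated state, and then without LIF for 24 h. It held 1 wild-type XX line (F121, musculus by castaneus), 1 wild-type XY line (V6.5, Mus musculus) and 2 female clones labelled Dusp9+/- (musculus by castaneus), each with 1 column at 0 h and 1 at 24 h. The gene Dusp9, on the X chromosome, codes for a phosphatase of the kinase ERK, and the clones carry the label of 1 disrupted copy. F121 and V6.5 differ in strain as well as in sex. Nothing in the labels gives separate cultures of a line, so p-values measure the spread between these lines or clones.

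Glycolysis turns glucose into pyruvate in the cytosol, and lactate dehydrogenase then turns pyruvate into lactate. HIF is a pair of proteins, an oxygen-labile alpha subunit (from Hif1a or Epas1) and Arnt. When oxygen is present the Egln enzymes mark the alpha subunit for destruction, so HIF activity is set largely at the protein level. HIF is known to induce most glycolytic enzymes as well as genes for mitophagy, vessel growth and collagen modification, among them Egln genes that restrain it. Mouse pluripotent cells are known for high glycolytic flux.

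Recovered reads ran from 8309171 to 14245900 per library. Values are log2 CPM with a floor at -2.45, and a gene is called when its Benjamini-Hochberg adjusted p from limma, over all genes tested, is under 0.05. Dusp9 was 6.93 in F121, 5.96 in clone 1 and 7.43 in clone 2 at 0 h, and 7.84, 7.71 and 6.58 in the same order at 24 h. The label was thus not borne out by a lower level in both clones at 0 h, and these columns are called the libraries labelled Dusp9+/- below. X-linked output (the median log2 level of 526 genes on the X chromosome minus the autosomal median, over 12869 genes) was -0.27 in LV21 at P7, against 0.36 and 0.46 in LV20 and LV22, and -0.26 in LV22 at P13, against -0.66 and -0.75 in LV20 and LV21. LV21 at P7 and LV22 at P13 therefore stood apart from the lines that share their labels, and results that rest on them are given with and without them. The 12 pluripotency markers summed to 3648 CPM or more in each library. Y-linked Ddx3y was at or under 3.52 in each library labelled female and at or over 5.11 in each labelled male. Eif2s3y (2.38 and 5.27) and Uty (1.46 and 4.51) separated the labels in the same way. Y-linked Kdm5d did not, at 0.47 in male CM3 and 1.72 in LV22 at P13. In the female lines Ddx3y (1.17), Eif2s3y (1.69) and Kdm5d (2.08) were called higher at P13 than at P7. In bulk libraries fewer cells of a type and less RNA per cell cannot be told apart.

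The list also held genes whose values are uncertain. Gapdh (3.66 to 5.02), Pgam1 (4.29 to 5.06), Aldoa, Tpi1, Eno1, Pkm and Ldha have near-identical processed copies elsewhere in the mouse genome, and how reads that match several places were counted is not given in the sources used here. Eno1 and its copy Eno1b were both listed. Eno1b ran from 1.84 to 5.22. Eno1 was 6.14 to 6.79 in F121 and the libraries labelled Dusp9+/-, and 7.54 to 8.24 in all the other libraries, including the 4 CM lines of the same kind of cross. Eno1 in F121 is therefore compared only within its experiment.

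Promoter sequences are shown for members that fell both in the male iPSC lines with passage and in the ESCs on LIF withdrawal (12 members) and have a single RefSeq start in the table used (8 of the 12). They let the 4 enzymes (Hk2, Gpi1, Pfkl and Tpi1) be read beside the 4 HIF targets (Bnip3, P4ha1, P4ha2 and Egln1) that moved with them. Each is the 250 bases before the start, 5′ to 3′ on the gene's strand, from RefSeq (GRCm38.p6). Capitals mark the core of the HIF response element as ACGTG or GCGTG on either strand (CACGT or CACGC when read on the other). A palindromic CACGTG holds ACGTG on both strands and counts as 2 matches.
Hk2 (chr6:82774455-82774704, minus strand): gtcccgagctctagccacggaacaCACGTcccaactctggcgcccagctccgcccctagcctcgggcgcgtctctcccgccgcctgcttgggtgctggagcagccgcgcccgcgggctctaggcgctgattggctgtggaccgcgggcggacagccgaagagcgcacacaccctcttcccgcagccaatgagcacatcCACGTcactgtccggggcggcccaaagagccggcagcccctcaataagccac
Gpi1 (chr7:34230337-34230586, minus strand): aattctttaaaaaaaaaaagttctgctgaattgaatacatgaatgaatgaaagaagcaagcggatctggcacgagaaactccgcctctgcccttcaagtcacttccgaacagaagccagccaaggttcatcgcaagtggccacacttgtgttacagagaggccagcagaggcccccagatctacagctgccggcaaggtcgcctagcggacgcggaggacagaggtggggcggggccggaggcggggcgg
Pfkl (chr10:78009808-78010057, minus strand): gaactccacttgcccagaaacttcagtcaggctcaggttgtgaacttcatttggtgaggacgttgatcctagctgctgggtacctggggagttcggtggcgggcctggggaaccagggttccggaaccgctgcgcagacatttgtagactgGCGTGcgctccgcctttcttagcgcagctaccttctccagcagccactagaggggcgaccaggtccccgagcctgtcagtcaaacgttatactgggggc
Tpi1 (chr6:124814159-124814408, minus strand): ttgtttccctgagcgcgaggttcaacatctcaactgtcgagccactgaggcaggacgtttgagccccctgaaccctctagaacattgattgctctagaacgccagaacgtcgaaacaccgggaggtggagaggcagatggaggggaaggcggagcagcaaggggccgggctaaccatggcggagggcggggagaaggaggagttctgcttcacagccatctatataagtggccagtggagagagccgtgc
Egln1 (chr8:124949255-124949504, minus strand): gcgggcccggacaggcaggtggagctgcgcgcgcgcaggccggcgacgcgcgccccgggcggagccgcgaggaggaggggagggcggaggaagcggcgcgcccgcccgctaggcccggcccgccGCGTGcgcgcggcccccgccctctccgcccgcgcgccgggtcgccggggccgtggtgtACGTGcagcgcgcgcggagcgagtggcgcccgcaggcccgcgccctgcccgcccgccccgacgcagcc
Bnip3 (chr7:138909507-138909756, minus strand): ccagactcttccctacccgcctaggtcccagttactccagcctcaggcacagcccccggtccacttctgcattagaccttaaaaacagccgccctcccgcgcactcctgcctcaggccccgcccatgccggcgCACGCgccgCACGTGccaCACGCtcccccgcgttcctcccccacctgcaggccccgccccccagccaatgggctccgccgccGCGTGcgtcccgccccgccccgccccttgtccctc
P4ha1 (chr10:59323046-59323295, plus strand): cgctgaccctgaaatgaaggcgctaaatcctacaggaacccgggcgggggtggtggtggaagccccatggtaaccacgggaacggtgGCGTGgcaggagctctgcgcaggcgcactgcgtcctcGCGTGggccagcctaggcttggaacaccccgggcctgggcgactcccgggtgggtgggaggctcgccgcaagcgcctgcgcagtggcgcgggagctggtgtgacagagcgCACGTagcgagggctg
P4ha2 (chr11:54100674-54100923, plus strand): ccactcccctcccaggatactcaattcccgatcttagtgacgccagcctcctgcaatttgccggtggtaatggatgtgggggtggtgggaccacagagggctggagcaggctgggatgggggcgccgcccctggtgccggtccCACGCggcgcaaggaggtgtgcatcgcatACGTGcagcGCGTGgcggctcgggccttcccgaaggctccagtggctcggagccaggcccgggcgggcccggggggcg

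Bnip3 held 2 matches to ACGTG, which are the strands of 1 CACGTG, and 3 to GCGTG within these 250 bases, and P4ha1 and P4ha2 each held 1 ACGTG and 2 GCGTG. Egln1 had 1 of each. Among the enzymes, Hk2 held 2 ACGTG and Pfkl 1 GCGTG, while these letters do not occur in the windows of Gpi1 and Tpi1. Of 53 windows for 33 members, 79.2% held either motif, and 38.6% of all 32851 windows did. ACGTG was in 43.4% of member windows and 16.6% of all windows, GCGTG in 54.7% and 28.2%, and CACGTG in 11.3% and 6.02%. The share with either motif was 75.0% for 24 enzyme windows and 77.8% for 18 HIF-induced windows. Windows of 1 gene can overlap, and the windows were not matched for base composition. Slc2a3, Epas1, Ndrg1 and Bhlhe40 had no window in the table.

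In the male iPSC lines most of the list fell from P7 to P13. Of the 37 members 20 were called lower, against 5.82% of 13978 genes, and 1 (Epas1) was called higher, against 7.23%. The 1 higher call does not exceed that share. By role, 3 of 3 transporters, 8 of 14 enzymes, 6 of 12 HIF-induced genes, Pfkfb3, Egln1 and Txnip were lower. The median change was -0.45 for the enzymes and -0.66 for the HIF-induced genes on the log2 scale, against 0 for all genes. The 14 enzymes all had a change under 0.

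**Figure D1:**
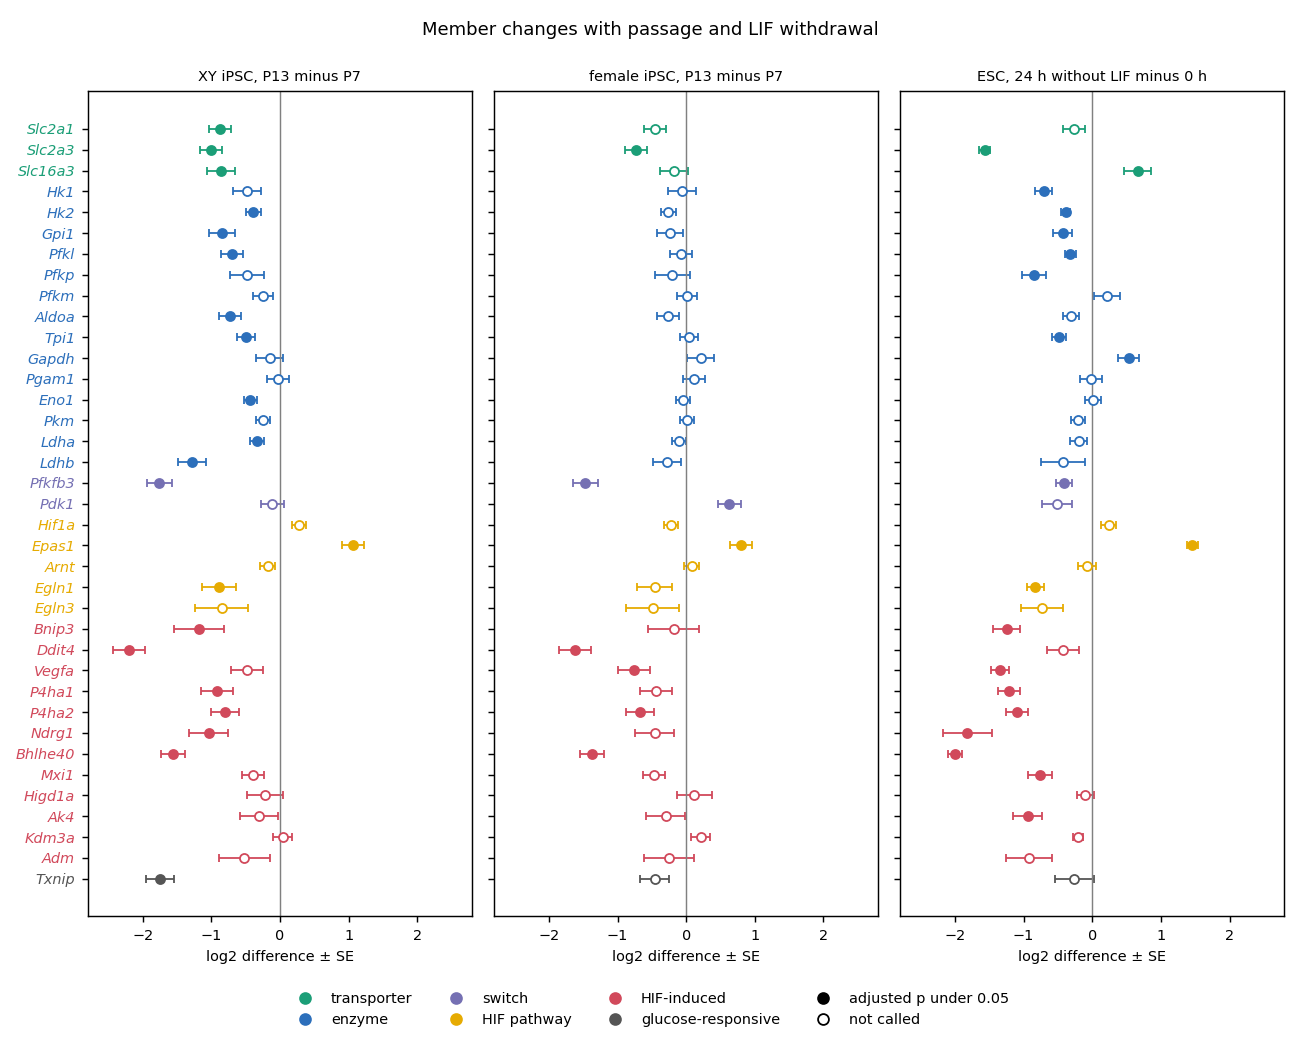
Log2 difference of each of the 37 members (horizontal axis, estimate ± SE from limma) with passage in male (left) and female (middle) iPSC lines and on LIF withdrawal in ESCs (right), colored by role, with filled points for called members. The enzymes lie left of 0 in the male lines (median -0.45) and near 0 in the female lines (median -0.07), and 8 of 12 HIF-induced genes are filled on LIF withdrawal.

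Glucose enters through Slc2a1 and Slc2a3 (GLUT1 and GLUT3). Slc2a1 was 9.84, 10.00 and 9.75 in LV4, LV8 and LV16 at P7, and 8.84, 9.06 and 9.07 at P13. Slc2a3 was 10.94, 11.13 and 11.00 at P7 and 9.85, 10.14 and 10.06 at P13. Every P13 library lay below every P7 library for both, with changes of -0.87 ± 0.16 (SE, adjusted p = 0.00472) and -1.01 ± 0.16 (adjusted p = 0.00289). Slc16a3, which exports lactate, went from 7.88, 8.08 and 7.96 to 7.21, 7.28 and 6.85, a change of -0.86 ± 0.20 (adjusted p = 0.0152).

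Among the enzymes Ldhb, the lactate dehydrogenase subunit that favors pyruvate formation, changed most. It was 7.92, 8.58 and 8.12 at P7 and 6.73, 6.99 and 7.07 at P13, a change of -1.28 ± 0.20 (adjusted p = 0.00243, 2.42-fold lower). Gpi1, the isomerase after hexokinase, fell from 9.82, 10.45 and 9.96 to 9.05, 9.27 and 9.36 (-0.85 ± 0.19, adjusted p = 0.0106). The groups did not overlap for either gene. Aldoa (-0.73 ± 0.16) and Pfkl (-0.70 ± 0.16), aldolase and the liver-type phosphofructokinase, fell by less, followed by Tpi1 (-0.50 ± 0.13), Eno1 (-0.43 ± 0.10), Hk2 (-0.39 ± 0.11) and Ldha (-0.33 ± 0.10). Hk1, Pfkp, Pfkm, Gapdh, Pgam1 and Pkm were not called, with values from -0.03 for Pgam1 to -0.48 for Pfkp and Hk1.

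Pfkfb3, which makes the activator of phosphofructokinase, changed more than any enzyme in the list. It was 6.34, 6.86 and 6.29 at P7 and 4.68, 4.69 and 4.83 at P13 (-1.76 ± 0.18, adjusted p = 0.00089, 3.39-fold lower). Pdk1, a kinase that inhibits pyruvate dehydrogenase, was not called (-0.11). Txnip, which restrains glucose uptake and is induced by glucose, went from 9.28, 10.19 and 9.46 to 7.75, 8.00 and 7.91 (-1.75 ± 0.21, adjusted p = 0.00107). Neither gene's groups overlapped.

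The HIF targets with the widest gaps were stress and feedback regulators. Ddit4, an inhibitor of the growth kinase mTORC1, was 7.61, 8.31 and 7.80 at P7 and 5.25, 5.73 and 6.13 at P13 (-2.20 ± 0.23, adjusted p = 0.00089, 4.61-fold lower). Bhlhe40, a transcriptional repressor, went from 7.48, 7.89 and 7.62 to 5.96, 5.81 and 6.54 (-1.56 ± 0.18, adjusted p = 0.00107). Both fell in each of the 3 lines. The mitophagy receptor Bnip3 went from 5.88, 6.53 and 6.40 to 4.60, 5.61 and 5.05 (-1.18 ± 0.37), and Ndrg1 from 5.85, 6.32 and 5.82 to 4.79, 5.55 and 4.54 (-1.04 ± 0.28). These groups did not overlap either, and LV8 was the highest of the 3 lines at both passages in both genes. The collagen prolyl hydroxylases P4ha1 (-0.92 ± 0.23) and P4ha2 (-0.80 ± 0.20) were also called lower. Vegfa, Mxi1, Higd1a, Ak4, Kdm3a and Adm were not called, with values from -0.52 for Adm, the gene of adrenomedullin, to 0.04 for Kdm3a, a histone demethylase.

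HIF's own genes did not move together. Egln1, the main oxygen sensor, fell from 5.97, 6.00 and 6.29 to 5.00, 5.52 and 5.08 (-0.89 ± 0.25, adjusted p = 0.0322). Epas1, which codes for HIF-2 alpha, rose from 6.31, 6.09 and 5.77 to 7.34, 7.21 and 6.84 (1.07 ± 0.16, adjusted p = 0.00206), so each P13 library lay above each P7 library. Hif1a (0.28 ± 0.10, adjusted p = 0.0698), Arnt (-0.18) and Egln3 (-0.85 ± 0.39) were not called. Hif1a, at 7.62, 7.27 and 7.51 against 7.80, 7.65 and 7.81, was higher at P13 in each line without overlap, and it was called with the line as a block (adjusted p = 0.0344).

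The male count rested in part on 2 libraries. It dropped from 21 members to 8 without LV8 at P7 and likewise to 8 without LV4 at P13. Calls over all genes dropped as well, from 1823 to 505 and to 429 in the same order. The same 8 members were called in every alternative run on the male lines: Slc2a1, Slc2a3, Ldhb, Pfkfb3, Epas1, Ddit4, Bhlhe40 and Txnip. Markers of other cells moved with passage as well. Of 20 fibroblast markers 15 were called higher and none lower (median change 1.58), and their sum ran from 876 to 945 CPM in the XY lines at P7 and from 1342 to 3035 at P13. Of 6 macrophage markers 4 were called higher. None of the fibroblast markers was at 0 reads in any of these libraries. The part of these cells in the members' changes was not tested.

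In the female iPSC lines fewer members were called than in the male lines, and no enzyme. Of the 37 members 6 were lower, against 4.68% of 13978 genes, and 2 were higher, against 4.32%. The 2 higher calls are near that share. The lower ones were Slc2a3, Pfkfb3 and 4 HIF-induced genes (Ddit4, Bhlhe40, Vegfa and P4ha2), and the higher ones Epas1 and Pdk1. None of the 14 enzymes was called, at a median of -0.07, against a median of -0.45 for the HIF-induced genes and 0 for all genes. By line the enzyme median was -0.24 in LV20 and -0.22 in LV22 but 0.18 in LV21, whose P7 library stood apart. By an unadjusted p under 0.05 (limma), 1 of the 14 enzymes passed, against 3671 of all 13978 genes.

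Ddit4 was 7.53, 7.00 and 7.19 in LV20, LV21 and LV22 at P7 and 5.77, 5.85 and 5.24 at P13 (-1.62 ± 0.23, adjusted p = 0.00308). Pfkfb3 went from 6.33, 6.22 and 5.85 to 4.64, 4.40 and 4.95 (-1.47 ± 0.18, adjusted p = 0.00163), and Bhlhe40 from 7.44, 7.32 and 6.88 to 5.75, 5.93 and 5.85 (-1.37 ± 0.18, adjusted p = 0.00251). All 3 lines fell in these 3 genes, and these 3 were the calls kept in each alternative. Epas1 rose from 6.35, 6.37 and 6.55 to 6.99, 7.40 and 7.26 (0.80 ± 0.16, adjusted p = 0.0115). Pdk1 was 7.14, 7.33 and 6.96 at P7 and 7.66, 8.26 and 7.41 at P13 (0.63 ± 0.17, adjusted p = 0.0342), also without overlap.

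Slc2a3 was lower at P13, from 11.24, 10.35 and 11.02 to 10.22, 10.09 and 10.10 (-0.73 ± 0.16, adjusted p = 0.0178). LV21 was lowest of the 3 at P7 and had the smallest drop. Vegfa, the vascular growth factor, overlapped between passages, at 6.69, 5.74 and 6.23 against 5.35, 5.79 and 5.25 (-0.76 ± 0.23, adjusted p = 0.0499). P4ha2 was 5.20, 4.65 and 4.59 against 4.06, 4.40 and 3.97 (-0.67 ± 0.20, adjusted p = 0.0471), and it lost its call with the line as a block (adjusted p = 0.051). The lines differed in Bnip3, which was not called: it changed from 5.90 to 5.14 in LV20 and from 5.24 to 4.28 in LV22, but from 4.42 to 5.58 in LV21.

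Without the libraries LV21 P7 and LV22 P13 the female count was 11 members rather than 8. P4ha2 was lost, and Slc2a1, Hk2, Mxi1 and Ak4 were gained. Leaving out LV21 at P7 alone gave 14, with the enzymes Hk2 and Aldoa among those gained. Leaving out LV20 or LV22 at P7 gave 3 and 4, and leaving out LV20 at P13 gave 4. Of 20 fibroblast markers 7 were called higher with passage and none lower, and their sum ran from 937 to 1195 CPM at P7 and from 1358 to 2437 at P13. Of 6 macrophage markers 3 were higher. Their part in the members' changes was not tested.

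**Figure D2:**
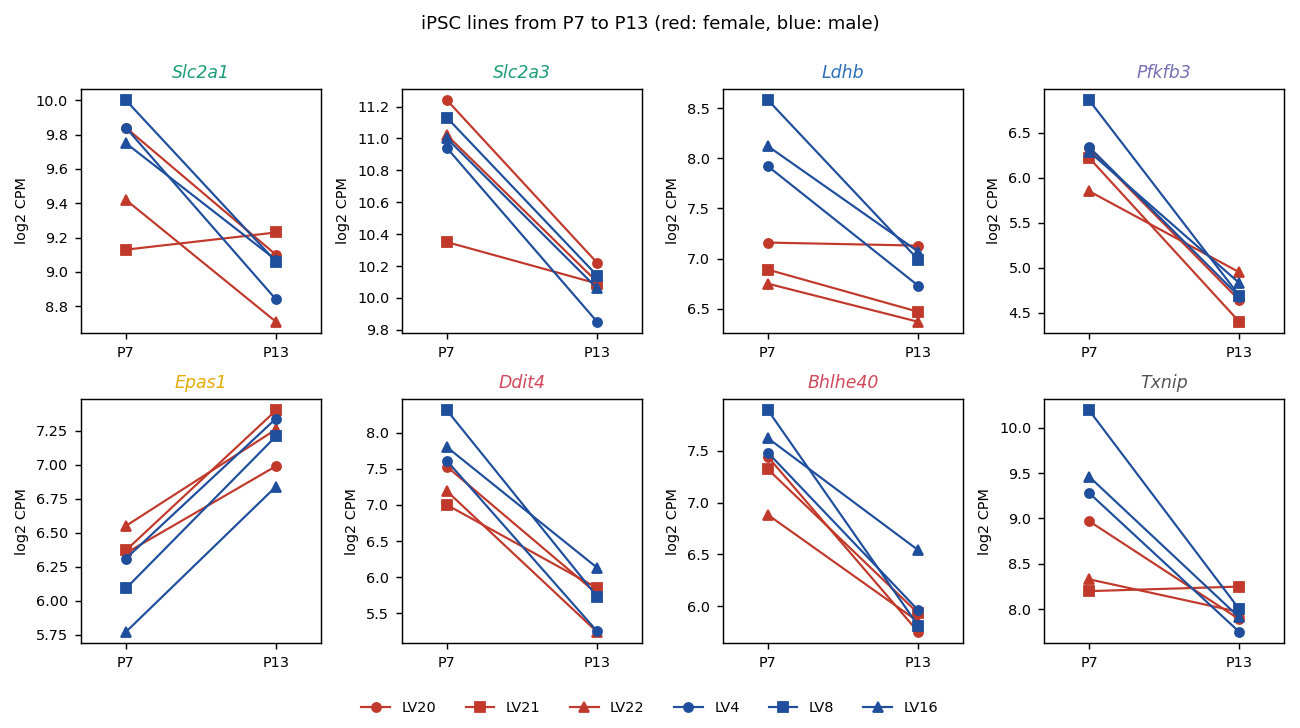
Log2 CPM of 8 members in each iPSC line at P7 and P13 (horizontal axis), with 1 line of points per cell line, red for female and blue for male, and a vertical axis of its own in each panel. Ddit4, Bhlhe40 and Pfkfb3 are lower and Epas1 is higher at P13 in all 6 lines, whereas Slc2a1 and Txnip in LV21 were slightly higher at P13 (9.23 and 8.25) than at P7 (9.13 and 8.20).

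The test of the difference between the female and the male passage change called no member in either direction, against 0% higher and 0% lower of 13978 genes (limma; 540 and 702 genes had an unadjusted p under 0.05, and limma on recovered reads called no member either). Of the members 9 had an unadjusted p under 0.05, 5 of them enzymes. The difference, female minus male, was over 0 for 33 of the 37 members, including all 14 enzymes (median 0.37) and 10 of 12 HIF-induced genes (median 0.23). It was 1.29 for Txnip and 1.00 ± 0.28 for Ldhb, neither called. Without the libraries LV21 P7 and LV22 P13, Slc16a3 (1.00, adjusted p = 0.0309) and Pdk1 (1.02, adjusted p = 0.0226) were called. Of the 20 members lower in the male lines 25.0% were also lower in the female lines, which is 83.3% of the 6 lower there. Of all genes 5.82% were lower in the male and 4.68% in the female lines, and their overlap over all genes was not counted.

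Other genes of the pathway, 68 named genes that are not members with 65 tested, were counted beside the list. In the male lines 11 were lower and 7 higher with passage, against the 5.82% and 7.23% of all genes given above. The lower ones with the largest changes were Ppp1r3c, a glycogen-targeting phosphatase subunit (-3.11), the aldolase Aldoc (-1.38) and Hif3a (-1.10). Ppp1r3c was a low gene, at 1.79, 1.85 and 2.10 in LV4, LV8 and LV16 at P7. At P13 it was at or near the floor, at -1.07, -2.45 and -0.06 there and -1.82, -1.43 and -1.72 in LV20, LV21 and LV22. It passed the filter through its P7 libraries alone, so the size of its change is uncertain. Lox (1.35), which fibroblasts also make, and Myc (0.93) were among the higher ones. In the female lines 3 were lower, Ppp1r3c (-2.49), Insig2 (-0.83) and Pdk3 (-0.67), and 4 were higher, among them Plod1 (1.09) and Hmox1 (0.62). These shares are near the 4.68% lower and 4.32% higher of all genes and are no result about the pathway. Pdk3 is X-linked.

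At P7 the members called between XX and XY lines were mainly enzymes and regulators of flux. Of the 37 members 6 were lower in XX, against 1.72% of 13978 genes, and Hif1a was higher, against 3.05%. The lower ones were Pfkl, Tpi1, Eno1, Ldhb, Pdk1 and Txnip. None of the 12 HIF-induced genes was called, although their median difference (-0.40) was as low as that of the enzymes (-0.38). Of these 12 genes 6 had an unadjusted p under 0.05 (limma), as did 2994 of all 13978 genes.

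Ldhb was 7.16, 6.89 and 6.75 in the XX lines and 7.92, 8.58 and 8.12 in the XY lines (-1.27 ± 0.20, adjusted p = 0.00563). Txnip was 8.97, 8.20 and 8.33 against 9.28, 10.19 and 9.46 (-1.14 ± 0.21, adjusted p = 0.0115), and Pdk1 7.14, 7.33 and 6.96 against 8.08, 7.94 and 7.75 (-0.78 ± 0.17, adjusted p = 0.0233). Each XX library lay below each XY library for these genes. Pfkl was 8.25, 7.87 and 7.92 against 8.47, 8.99 and 8.58 (-0.67 ± 0.16), Tpi1 8.18, 7.83 and 7.83 against 8.45, 8.79 and 8.53 (-0.64 ± 0.13), and Eno1 7.88, 7.61 and 7.71 against 8.03, 8.24 and 8.05 (-0.37 ± 0.10). These 3 enzymes also showed no overlap. Hif1a, which codes for the main HIF alpha subunit, was 7.79, 7.94 and 8.04 in XX and 7.62, 7.27 and 7.51 in XY (0.46 ± 0.10, adjusted p = 0.0219).

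Ldhb was the call kept in every alternative. Without LV8 at P7, or without LV22 at P7, the count was 1 (Ldhb) rather than 7. Calls over all genes dropped as well, from 668 to 59 and to 44 in the same order. The member count was 4 without LV16 at P7, and 10 without LV21 at P7. It was likewise 10 without both LV21 P7 and LV22 P13, where Eno1 was lost and Slc16a3, Pfkm, Gapdh and Ak4 were gained. No fibroblast marker of 20 was called in this comparison. Among the 65 other pathway genes Aldoc (-1.38), Hif3a (-1.27) and Narf (-0.68) were lower in XX, against 1.72% of all genes. X-linked Pdk3 alone was higher (0.68), against 3.05%, which does not exceed that share.

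At P13 the female lines labelled XO and the XY lines gave no called member, against 0% higher and 0.0286% lower of 13978 genes. Over all genes 189 higher and 187 lower had an unadjusted p under 0.05, no member was among them, and limma on recovered reads called no member. The median difference was -0.02 for the enzymes and -0.06 for the HIF-induced genes. Ldhb was 7.13, 6.47 and 6.37 in XO and 6.73, 6.99 and 7.07 in XY, so the groups overlapped, and Txnip was 7.89, 8.25 and 7.97 against 7.75, 8.00 and 7.91. The values spanned -0.71 for Adm to 0.46 for Ak4. The P7 and P13 comparisons of the sexes were set against each other only through the passage difference given above.

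**Figure D3:**
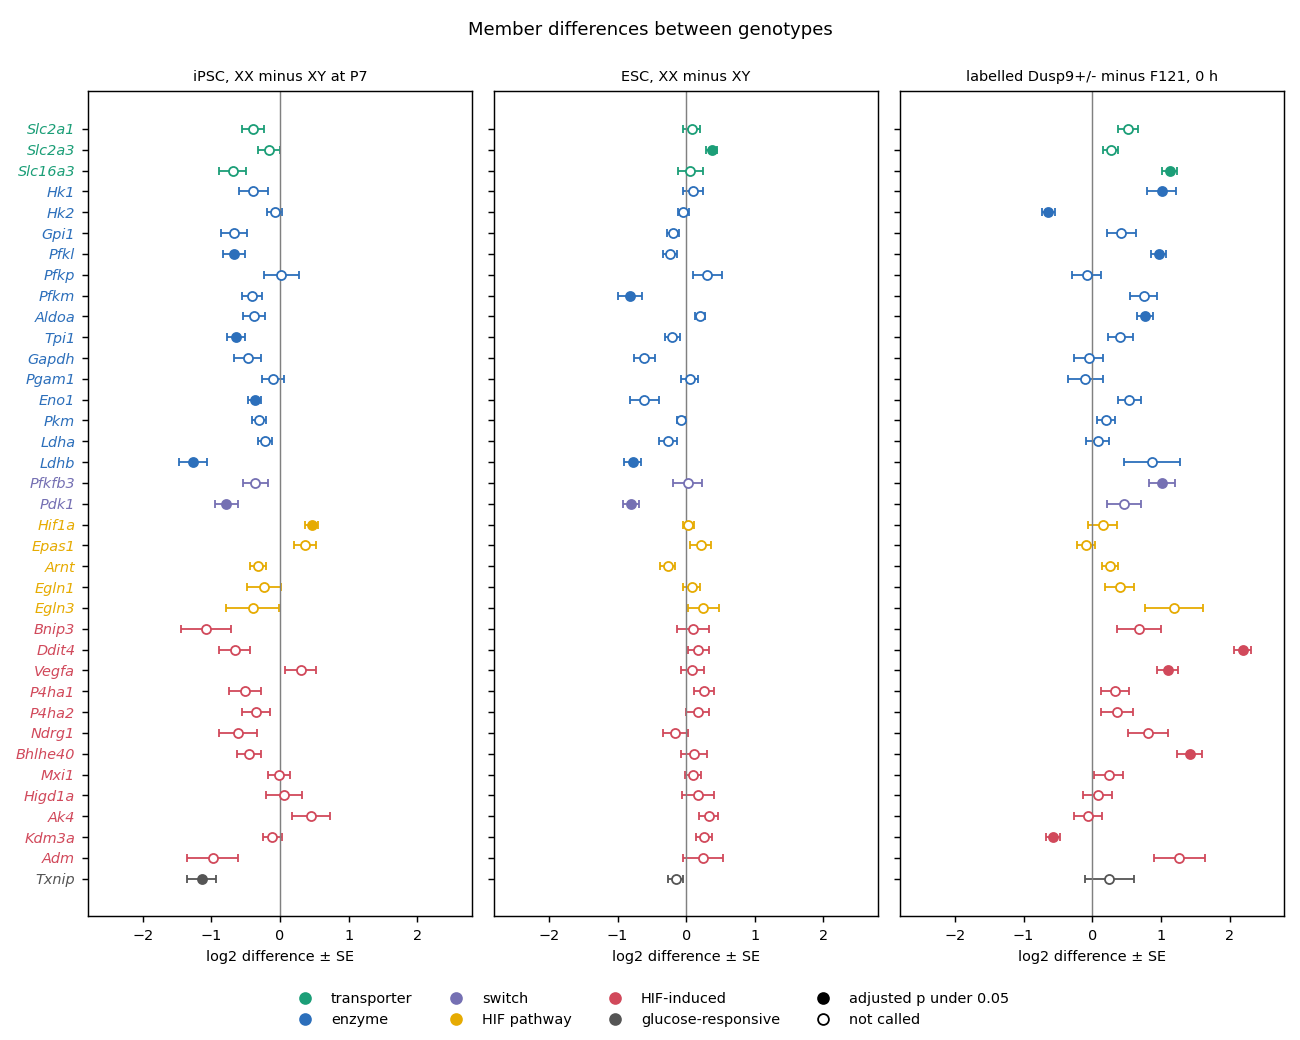
Log2 difference of each member (horizontal axis, estimate ± SE from limma) between XX and XY iPSCs at P7 (left), XX and XY ESCs (middle), and the libraries labelled Dusp9+/- and F121 at 0 h (right), with filled points for called members. Ldhb and Pdk1 are filled left of 0 in the left and middle panels, and 8 members are filled right of 0 in the right panel, led by Ddit4 at 2.19.

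In undifferentiated wild-type ESCs (CM1, CM2 and F121 at 0 h against CM3, CM7 and V6.5 at 0 h, with the experiment as a covariate) 3 members were lower in XX, against 2.32% of 14193 genes, and 1 was higher, against 4.87%. Pdk1 was 7.55, 7.42 and 7.82 in XX and 8.60, 8.24 and 8.36 in XY (-0.80 ± 0.12, adjusted p = 0.00683). Ldhb was 5.76, 5.72 and 5.31 against 6.58, 6.74 and 5.82 (-0.78 ± 0.12, adjusted p = 0.00748). The muscle-type phosphofructokinase Pfkm was 4.94, 4.82 and 4.51 against 5.36, 5.51 and 5.84 (-0.82 ± 0.18, adjusted p = 0.0299). Slc2a3 was higher in XX, at 10.55, 10.56 and 10.73 against 10.10, 10.37 and 10.26 (0.37 ± 0.08, adjusted p = 0.0315). This 1 higher call does not exceed the 4.87% of all genes. In each of the 4 genes the XX and XY libraries did not overlap, with the narrowest gap in Ldhb.

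None of the 12 HIF-induced genes was called in the ESCs (median 0.17, limma). Of these 12 genes 2 had an unadjusted p under 0.05, which does not exceed the share of all genes (3322 of 14193). Limma on recovered reads added only Gapdh to the called members. Ldhb and Pdk1 were lower in XX both here and in the iPSCs at P7, which share no library. The count was 0 without CM1 or without CM2, 2 without CM3 and 8 without F121 or without V6.5. With the CM lines alone it was 9, as Pfkp, Tpi1, Gapdh, Ldha and Txnip were added. Of 64 other pathway genes tested, Aldoc (-0.82), Fam162a (-0.79) and Bpgm (-0.60) were lower in XX, against 2.32% of all genes. X-linked Pdk3 (0.78) and Pgm1 (0.71) were higher, against 4.87%, and these 2 do not exceed that share.

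On LIF withdrawal 8 of the 12 HIF-induced genes fell, and the transporter Slc2a3 and 6 enzymes fell with them. Over the 4 lines 17 of 37 members were lower at 24 h than at 0 h, against 15.9% of 14335 genes, and 3 were higher, against 16.8%. The 3 higher calls do not exceed that share. All 12 HIF-induced genes had a change under 0 (median -1.02), while of the 14 enzymes 6 were lower and 1 higher (median -0.31). All genes had a median of 0.02. The difference between these roles was not tested.

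Bhlhe40 was 6.16, 5.48, 7.72 and 7.44 at 0 h in F121, V6.5, clone 1 and clone 2, and 4.15, 3.47, 5.45 and 5.73 at 24 h. The levels of the lines overlapped between times, but each line fell by 1.71 to 2.27 (fitted change -2.00 ± 0.10, adjusted p = 0.000125, 3.99-fold lower). Ndrg1, a HIF target tied to differentiation, went from 5.10, 4.77, 6.27 and 5.56 to 3.48, 1.40, 4.73 and 4.83 (-1.82 ± 0.36, adjusted p = 0.00858), most in V6.5. Vegfa fell from 5.36, 5.81, 6.56 and 6.36 to 3.91, 4.96, 4.86 and 4.98 (-1.34 ± 0.13, adjusted p = 0.000738), with each 24 h library below each 0 h library.

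Bnip3 went from 4.82, 4.58, 5.88 and 5.11 to 3.83, 3.64, 3.89 and 4.04 (-1.25 ± 0.19, adjusted p = 0.00334). P4ha1 went from 6.36, 5.97, 6.91 and 6.47 to 5.61, 4.89, 5.29 and 5.08 (-1.21 ± 0.16, adjusted p = 0.00167), and P4ha2 from 4.27, 4.26, 4.87 and 4.40 to 3.53, 2.75, 3.62 and 3.50 (-1.10 ± 0.16, adjusted p = 0.00267). All 3 had no overlap between the times. All 3 hold both motifs in the promoter windows printed above. Of the enzymes printed there, which also fell, Hk2 holds ACGTG alone, Pfkl holds GCGTG alone, and Gpi1 and Tpi1 hold neither. A link between motifs and changes was not tested. Ak4, a mitochondrial adenylate kinase, went from 6.05, 5.99, 6.11 and 5.87 to 5.31, 4.19, 5.18 and 5.58 (-0.94 ± 0.21), and Mxi1, an antagonist of Myc, also fell (-0.76 ± 0.18). Ddit4 was not called (-0.43): it was 4.85 at 0 h and 5.39 at 24 h in F121, and lower at 24 h than at 0 h in the other 3 lines. Higd1a, Kdm3a and Adm were not called either, with Adm at -0.92 ± 0.34.

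Slc2a3 showed the steepest change of the transporters, from 10.73, 10.26, 11.04 and 10.96 to 9.24, 8.44, 9.42 and 9.60 (-1.57 ± 0.08, adjusted p = 0.000125, 2.97-fold lower). Slc2a1 was not called (-0.27), since it was 8.52 and 7.58 in V6.5 but 9.27 and 9.51 in clone 1. Slc16a3 was higher at 24 h (0.66 ± 0.20, adjusted p = 0.0367), and it went from 6.51 to 7.57 in F121 and from 5.83 to 7.12 in V6.5 but only from 7.56 to 7.80 and from 7.71 to 7.76 in the clones. It lost its call without any 1 of the 4 wild-type libraries.

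Pfkp, the platelet-type phosphofructokinase, had the largest enzyme change, from 8.79, 9.05, 8.97 and 8.45 to 8.04, 7.59, 8.08 and 8.15 (-0.85 ± 0.17, adjusted p = 0.00806), without overlap. Hk1 (-0.71 ± 0.12), Tpi1 (-0.48 ± 0.10), Gpi1 (-0.43 ± 0.14), Hk2 (-0.39 ± 0.06) and Pfkl (-0.32 ± 0.08) fell by less, as did Pfkfb3 (-0.41 ± 0.12). Gapdh was higher (0.53 ± 0.15, adjusted p = 0.0312), at 3.92, 4.36, 3.66 and 4.07 before and 4.90, 4.81, 4.15 and 4.26 after, a value with the uncertainty given for its copies. Aldoa, Pgam1, Eno1, Pkm, Ldha, Ldhb, Pfkm and Pdk1 were not called. Ldhb was 5.31 and 5.54 in F121 and 5.82 and 6.08 in V6.5, higher at 24 h, but 6.67 and 4.82 in clone 1 and 5.68 and 5.33 in clone 2.

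Epas1 rose in all 4 lines, from 6.57, 6.12, 6.39 and 6.56 to 8.08, 7.40, 8.08 and 7.90 (1.46 ± 0.08, adjusted p = 0.00014, 2.75-fold higher). Egln1 fell from 5.65, 5.73, 6.29 and 5.81 to 5.07, 4.83, 5.13 and 5.11 (-0.83 ± 0.12, adjusted p = 0.00261). Neither gene overlapped between the times. Hif1a (0.24), Arnt (-0.08) and Egln3 (-0.73) were not called.

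**Figure D4:**
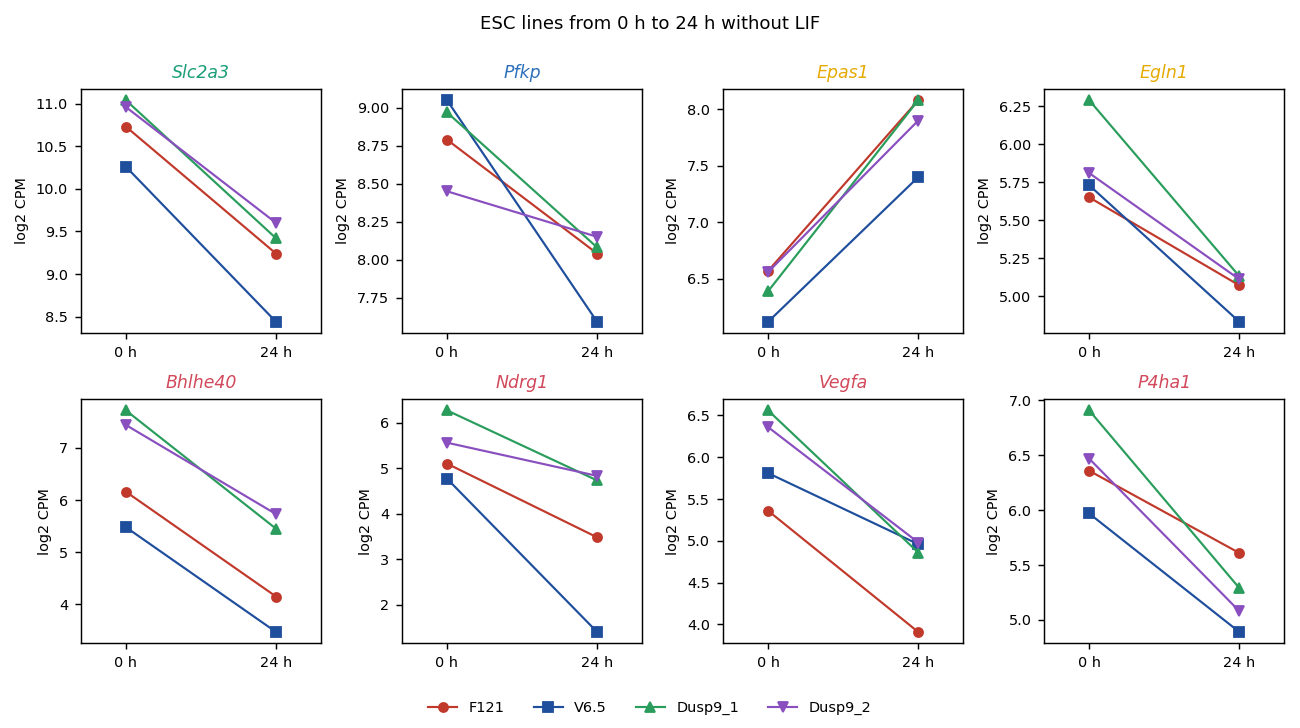
Log2 CPM of 8 members at 0 h and after 24 h without LIF (horizontal axis) in F121 (red), V6.5 (blue) and the clones labelled Dusp9+/- (clone 1 green, clone 2 purple), with a vertical axis of its own in each panel. Slc2a3, Pfkp, Egln1, Bhlhe40, Ndrg1, Vegfa and P4ha1 are lower and Epas1 is higher at 24 h in each of the 4 lines.

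Of the 20 members called on LIF withdrawal 13 kept their call in every alternative: Slc2a3, Hk2, Tpi1, Epas1, Egln1, Bnip3, Vegfa, P4ha1, P4ha2, Ndrg1, Bhlhe40, Mxi1 and Ak4. The 13 thus held 8 HIF-induced genes and 2 enzymes. With the wild-type lines alone 20 members were called, of which 17 were among the 20, and with the clones alone 23, of which 16 were. With the line as a block 18 were called, without Slc16a3 (adjusted p = 0.0645) and Gpi1 (adjusted p = 0.061). The 6 macrophage markers all fell with the withdrawal, and 11 of 20 fibroblast markers fell. Fibroblast markers summed to 1823 CPM in F121 and 1915 in V6.5 at 0 h, and to 890 and 736 at 24 h. In the libraries labelled Dusp9+/- they summed to 491 to 772 CPM at 0 h and 624 to 884 at 24 h. Macrophage markers summed to 233 CPM in F121 and 184 in V6.5 at 0 h, and to 64.6 and 36.5 at 24 h. Markers of both kinds were thus present at 0 h, although this experiment is described as grown without feeder cells. The part of fibroblasts and macrophages in the members' changes was not tested. Of the 12 pluripotency markers 5 fell and 2 rose.

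Of the 65 other pathway genes tested on LIF withdrawal 26 were lower, against the 15.9% of all genes given above, and 6 were higher, against 16.8%. Aldoc (-2.14), Hk3 (-2.10) and Eno2 (-2.06), isozymes of the list's enzymes, had the largest drops. Hk3 was a low gene, at 1.67, 1.43, 1.64 and 2.20 at 0 h in F121, V6.5, clone 1 and clone 2. At 24 h it was -0.08, -1.87, 0.54 and -0.07 in the same order. Hk3 passed the filter mainly through its 0 h libraries, so the size of its change is uncertain. Myc (1.38), Eno3 (0.78) and Mycn (0.66) had the largest rises. The X-linked enzyme Pgk1 was among the lower ones (-0.55 ± 0.15, adjusted p = 0.0244).

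Of the 20 members lower in the male iPSC lines with passage 12 were also lower on LIF withdrawal, which is 60.0% of the first list and 70.6% of the second. They were Slc2a3, Hk2, Gpi1, Pfkl, Tpi1, Pfkfb3, Egln1, Bnip3, P4ha1, P4ha2, Ndrg1 and Bhlhe40. Epas1 was higher in both, and in the female lines. Of all genes 5.82% were lower in the male lines with passage and 15.9% on LIF withdrawal. The overlap of these calls over all genes was not counted.

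Before withdrawal the libraries labelled Dusp9+/- had higher levels than F121 of 3 HIF-induced genes, 3 enzymes, Pfkfb3 and Slc16a3. At 0 h 8 members were higher, against 4.81% of 14335 genes, and 2 were lower, against 4.1%. The 2 lower calls are near that share. The comparison is of 2 clones with 1 library of 1 line, which is assumed to vary like the clones. Ddit4 was 7.06 and 7.01 in clones 1 and 2 and 4.85 in F121 (2.19 ± 0.12, adjusted p = 0.00784, 4.56-fold higher). Bhlhe40 was 7.72 and 7.44 against 6.16 (1.42 ± 0.18, adjusted p = 0.0207), and Vegfa 6.56 and 6.36 against 5.36 (1.10 ± 0.15, adjusted p = 0.0223).

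Slc16a3 was 7.56 and 7.71 in the libraries labelled Dusp9+/- and 6.51 in F121 (1.13 ± 0.11, adjusted p = 0.0149). Pfkfb3 was 6.06 and 5.68 against 4.86 (1.01 ± 0.19), Hk1 7.15 and 6.85 against 5.98 (1.01 ± 0.21), Pfkl 8.70 and 8.54 against 7.65 (0.97 ± 0.11) and Aldoa 10.42 and 10.21 against 9.55 (0.77 ± 0.12). Both clones were above F121 in each of these genes. Hk2, at 8.47 and 8.36 against 9.05, and Kdm3a, at 8.03 and 7.91 against 8.54, were lower (-0.64 ± 0.10 and -0.57 ± 0.10). So the 2 hexokinases differed in opposite directions. Only Slc16a3, Pfkl and Ddit4 kept their call in all alternatives. The count was 3 with no filter on low values and 20 without clone 2 at 0 h. V6.5 at 0 h lay below both clones in the 8 genes that were higher there, widely in Ddit4 (4.41) and less so in Vegfa (5.81) and Hk1 (6.34). It lay above both clones in Hk2 (9.13), and in Kdm3a it was at 8.13, nearer to the clones than to F121. These values of V6.5 carry no test.

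At 24 h 3 members were higher in the libraries labelled Dusp9+/-, against 1.57% of 14335 genes, and 1 was lower, against 0.984%. Bhlhe40 was 5.45 and 5.73 against 4.15 (1.43 ± 0.18, adjusted p = 0.0355), Vegfa 4.86 and 4.98 against 3.91 (1.01 ± 0.15, adjusted p = 0.0412) and Pfkl 8.12 and 8.21 against 7.50 (0.67 ± 0.11, adjusted p = 0.0467). Hk2 was 8.02 and 8.06 against 8.64 (-0.60 ± 0.10, adjusted p = 0.0451). The same 4 genes had been called in the same direction at 0 h. No call at 24 h was kept without the filter, with limma on recovered reads, or without clone 2 at 24 h, and 13 members were called without clone 1 or without clone 2 at 0 h. The 2 comparisons use different libraries of the same lines.

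The test of the difference in the change on withdrawal between the libraries labelled Dusp9+/- and F121 called no member, against 0% higher and 0% lower of 14335 genes (limma; 753 and 1013 genes had an unadjusted p under 0.05, 12 members among them, and limma on recovered reads called none). The median difference was -0.51 for the enzymes and -0.20 for the HIF-induced genes. Txnip had -1.41, as it went from 8.00 to 8.58 in F121 but from 8.73 to 7.32 and from 7.77 to 7.53 in the clones, and it was called without clone 2 at 0 h. Fibroblast markers were lower in the libraries labelled Dusp9+/- than in F121 at 0 h for 8 of 20 and higher for none. Their part in these differences was not tested.

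Of the 65 other pathway genes at 0 h 8 were called higher in the libraries labelled Dusp9+/- than in F121, against 4.81% of all genes. Among them were Slc2a4 (2.31), Eno2 (2.27) and Pgf (1.63). Slc2a4 (2.02 and 2.15 in the clones, -0.22 in F121) and Pgf (1.64 and 1.42, against -0.10) were low genes. The sizes of their differences are therefore uncertain, and Pgf passed the filter mainly through the libraries labelled Dusp9+/-. Lower calls were 3, Lox (-2.69), Angptl4 (-1.16) and Tigar (-0.69), which is near the 4.1% of all genes. Eno2, the neuronal enolase, was 5.70 and 4.97 in the clones and 3.06 in F121. Lox is also a fibroblast product. At 24 h Pdha1 (0.62) was higher and Slc16a1 (-0.54) lower. That is 1 of 65 in each direction, against 1.57% higher and 0.984% lower of all genes, and is no result about the pathway.

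The 2 main roles were also compared within each line. From P7 to P13 the HIF-induced median was below the enzyme median in 5 of 6 iPSC lines, for example -0.84 and -0.24 in LV20 and -0.80 and -0.43 in LV16. LV21 was the exception, at 0.26 and 0.18, where 27 of the 37 members were higher at P13. On LIF withdrawal it was below in 4 of 4 lines, and in F121 the enzyme median was 0.04 while the HIF-induced median was -0.74. The HIF-induced median was -0.89 in V6.5, -1.39 in clone 1 and -1.01 in clone 2. These medians are over genes that share a library and carry no test.

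**Figure D5:**
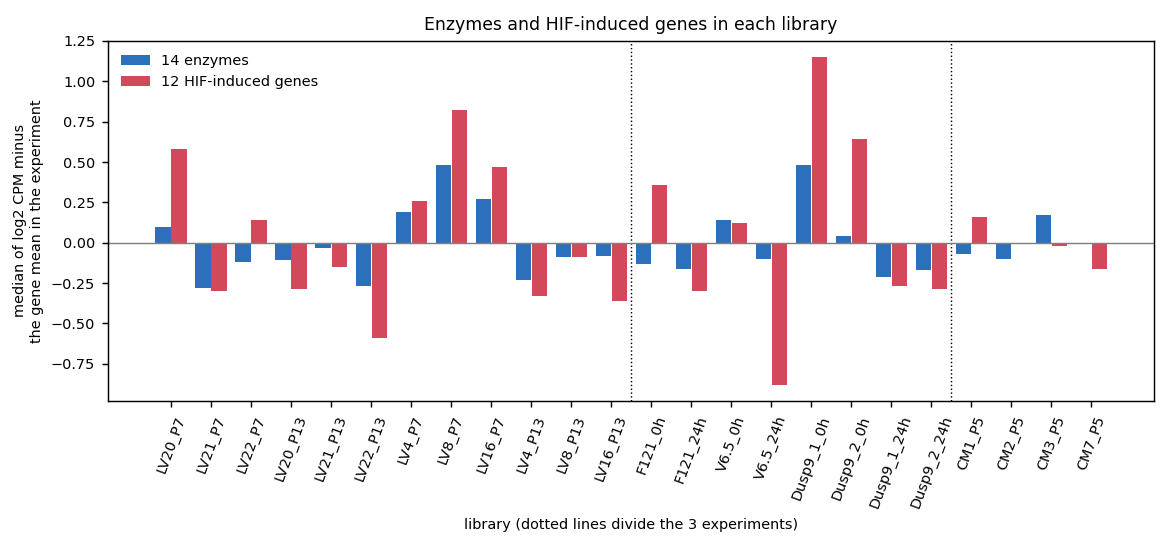
Median over the 14 enzymes (blue) and the 12 HIF-induced genes (red) in each of the 24 libraries (horizontal axis), each gene as log2 CPM minus its mean over the libraries of the experiment (vertical axis). The HIF-induced bar reaches from 0.82 in LV8 at P7 to -0.59 in LV22 at P13 among the iPSCs and from 1.15 in clone 1 at 0 h to -0.88 in V6.5 at 24 h, while the enzyme bar stays between -0.28 and 0.48.

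Over all 24 libraries the spread of single members was uneven within each role. Among the enzymes Ldhb ranged over 3.76 log2 units (4.82 to 8.58) and Pgam1 over 0.78. Ldha, which favors lactate formation, ranged over 0.84 (9.18 to 10.02). Among the HIF-induced genes Ndrg1 ranged over 4.92, Bhlhe40 over 4.42 and Ddit4 over 4.19, whereas Higd1a (3.10 to 4.18) ranged over 1.08 and Kdm3a over 1.28. Arnt (6.59 to 7.66) and Hif1a (7.27 to 8.45) were the steadiest of the HIF pathway genes, and Egln3 (4.70 to 7.46) the widest.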

How the data were processed

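The authors deposited 1 table of log2 CPM values (reads scaled to library size, then log2), which is a unit other than counts, for 16687 genes and 24 columns. Per the labels, libraries were stranded, single-end and read from mRNA, and 8 technical repeats in the withdrawal experiment have no column of their own, so whether they were combined is not stated. Per the submitters' processing notes the tools were edgeR, featureCounts and STAR 2.5.3a, in no stated role, and the builds mm10 and GRCm38. The 20 chromatin samples were not analysed here.

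On the linear scale each column is an offset of 0.183 CPM plus whole multiples of 1 read's worth. Reads recovered from these steps were whole in 100.0% of values, within 0.01 read, and totalled 8309171 to 14245900 per library. Recovered reads carry counting error, which is largest for low genes such as Adm.

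Tests took genes whose mean CPM in the fitted libraries reached 1, and used limma 3.58.1 in R 4.3.3 (lmFit, eBayes with a trend, two-sided) on the deposited values, with p-values adjusted by Benjamini-Hochberg over every gene tested. The 12 iPSC libraries shared 1 fit of 4 group means, the 6 wild-type ESC libraries 1 fit with the experiment as covariate, and the 8 withdrawal libraries 1 fit of time with genotype as covariate and 1 fit of 6 means. In the last fit, single columns take their spread from the clones. Simulated data were used to test the fits. Alternatives changed the filter, the offset (1 or 5 CPM), the scaling, the model (limma voom on recovered reads) and the libraries.

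The members, role groups, pathway and marker lists were chosen with earlier results of these data known. Named values are those of members called in a comparison, up to 8 per comparison by size, and of up to 3 pathway genes in each direction. Values of further members were added after they were seen. The values of 1 pathway gene are not reported here. P7 and P13 libraries of an iPSC line, and both times of an ESC line, come from the same line, so these numbers pair the samples. The deviations of the 2 passages correlated at -0.039 to 0.11. Motifs were searched in the 250 bases before each RefSeq start (GRCm38.p6), and 33 of 37 members matched by symbol.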

Additional observations from a re-analysis of the deposited data

How the results depend on the processing

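No member changed direction while called in any alternative. Of the single-member values under the alternatives, 5996 kept their side of the threshold, 199 lost a call and 95 gained one. Leaving out each library in turn gave 8 to 22 called members for male passage (21 with all libraries), 3 to 14 for female passage (8), 1 to 10 for XX against XY at P7 (7), 0 to 8 for XX against XY ESCs (4), 16 to 20 for LIF withdrawal (20), 7 to 20 for the libraries labelled Dusp9+/- against F121 at 0 h (10) and 0 to 13 at 24 h (4). The test of the difference in withdrawal response gave 0 to 1 (0), that of the passage difference 0 in each case, and XO against XY at P13 0 in each case. With no filter on low values 5 members were called for female passage, 3 for the clones at 0 h and 0 at 24 h. For the clones at 24 h, log2(CPM + 5) gave 1 and limma voom on recovered reads gave 0. Spread taken from the 2 female groups alone gave 4. Without LV21 P7 and LV22 P13 the passage difference gave 2. The CM lines alone gave 9 for the ESCs. The cause of these shifts was not tested. All-gene medians lay between -0.062 and 0.066 under the settings run.

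With the line as a replicate block (a paired fit), 22 members were called for male passage, 7 for female passage, 18 for LIF withdrawal, and 0 for the passage difference and for the difference in withdrawal response. The block added Hif1a to the male calls, took P4ha2 from the female calls and Slc16a3 and Gpi1 from those on withdrawal, changed no other call of a member, and moved no count of members by over 1.5 times; over all genes the passage difference went from 0 to 11 calls.

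Over all genes, counts moved by over 1.5 times as follows. Male passage had 1823 calls, and 429 to 1018 without LV4 or LV8 at P13 or LV8 or LV16 at P7. Female passage had 1258 calls, 436 with spread from its own groups, and 174 to 2079 on leaving out 1 library. XX against XY at P7 had 668 calls, 440 with no filter, 428 with spread from its own groups, 1818 without LV21 P7 and LV22 P13, and 44 to 1727 on leaving out 1 library. The passage difference had 364 calls without LV21 P7 and LV22 P13, and 145 without LV21 at P7. The ESCs had 1020 calls, 1690 in the CM lines alone and 208 to 1682 on leaving out 1 library. LIF withdrawal had 4688 calls and 3086 without clone 2 at 24 h. The clones at 0 h had 1277 calls, 200 with no filter and 587 to 1953 on leaving out 1 library. At 24 h they had 366, 0 with no filter, 178 with log2(CPM + 5), 16 with limma voom, and 1 to 1592 on leaving out 1 library. The difference in withdrawal response had 0 calls, and 24 without clone 2 at 0 h.

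Leaving out F121 at 0 h or at 24 h could not be fitted for the comparisons of the clones that need it. With 2 residual degrees of freedom in the fit of 6 means, and 3 in the ESC fit, members that were not called may still differ.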
